A study of Rattus norvegicus with 18 samples.

Results

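Whether QDG shifted microRNAs (miRNAs) in hypertensive rat hearts was asked by comparing 6 heart libraries of spontaneously hypertensive rats (SHR) given QDG with 6 of SHR not labelled as given it. These are 12 of the 18 small-RNA libraries of the study. The other 6 came from Wistar Kyoto rats (WKY), labelled normal, and serve below as the level of the normotensive strain. The design text pairs QDG with NS as the agents given to SHR, without spelling either out, and the labels of the 6 SHR libraries say hypertension only, so whether these rats received NS is taken from the design text alone. Dose, duration, age and sex were not stated in the labels. Both groups compared are of the SHR strain. Members were all listed rat miRNAs with at least 1 normalized read per 1000000 (RPM) in at least 6 of the 18 libraries, which kept 410 of 599 entries.

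No miRNA passed the test. Of 410 miRNAs tested, 0 (0%) differed between QDG and SHR at an adjusted p under 0.05 in limma. At an unadjusted p under 0.05 there were 15 (3.66%), of which 11 (2.68%) were higher and 4 (0.976%) lower with QDG. edgeR, DESeq2 and limma-voom on the recovered reads also called 0 at the adjusted threshold, with 10 higher and 8 lower, 8 and 12, and 10 and 9 at an unadjusted p under 0.05. The lean to the higher side depended on the scaling of the libraries: limma gave 10 higher and 7 lower with TMM scaling, 10 and 10 with RLE, and 7 and 13 when scaled without the 10 most abundant miRNAs.

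miRNAs are short RNAs that guide Argonaute proteins to messenger RNAs, mostly through the seed at bases 2 to 8, and lower the output of those messages. Heart muscle is dominated by the miR-1 and miR-133 families, which act in cardiomyocyte growth and conduction. The myosin-gene miRNAs miR-208a, miR-208b and miR-499 are encoded in introns of myosin heavy chain genes and rise or fall with their hosts. In hypertensive hearts, miR-21 and miR-132/212 are known for promoting remodelling, and miR-29 and miR-30 for restraining matrix genes.

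The mature sequences of 8 miRNAs on which the results turn are shown from RefSeq (GRCr8), 5′ to 3′, with the seed in capitals. RefSeq gave a single sequence for 372 of the 410 tested names. The first 3 belong to the imprinted Dlk1-Dio3 region on chromosome 6, the next 2 had small unadjusted p-values at high levels, and the last 3 are the myosin-gene miRNAs.
miR-136-3p: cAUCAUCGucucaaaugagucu
miR-376b-3p: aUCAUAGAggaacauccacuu
miR-127-3p: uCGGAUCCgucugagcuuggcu
miR-148a-5p: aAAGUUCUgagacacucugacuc
miR-22-3p: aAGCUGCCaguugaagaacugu
miR-208a-3p: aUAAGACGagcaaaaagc
miR-208b-3p: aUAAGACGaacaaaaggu
miR-499-5p: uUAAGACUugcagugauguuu
On GRCr8, miR-127-3p lies at chr6:134328510-134328531, miR-136-3p at chr6:134331383-134331404 and miR-376b-3p at chr6:134558913-134558933, all on the plus strand. miR-148a-5p lies at chr4:81664483-81664505 on the minus strand and miR-22-3p at chr10:60805387-60805408 on the plus strand. miR-208a-3p at chr15:32395568-32395585 and miR-208b-3p at chr15:32421648-32421665, both on the minus strand, share the seed UAAGACG. miR-499-5p at chr3:164570616-164570636 has the seed UAAGACU.

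No difference in depth or composition was detected between the 2 groups. SHR libraries held 6420666 to 10169581 reads over miRNAs and QDG libraries 6805472 to 8574447 (exact permutation p = 0.723), and 1 RPM stood for 4.45 to 7.40 reads across them. These are sums over entries, and in each library they exceeded the number of reads behind its scaling (6420666 against 4449279 in SHR replicate 1). Shares below are of the summed reads. The share of reads in the 10 most abundant miRNAs was 65.8 ± 1.15% in SHR and 65.4 ± 0.514% with QDG (SD over 6 libraries each, exact permutation p = 0.431). miR-1b alone took 26.1 ± 1.42% and 25.1 ± 1.06% (exact permutation p = 0.206). With these 4 two-sided tests, adjusted p-values ran from 0.511 to 0.723. Without SHR replicate 5 the share of the 10 most abundant differed by -0.856 percentage points, QDG minus SHR (exact permutation p = 0.0390, unadjusted). The number of miRNAs detected was 503.2 in SHR and 496.8 in QDG (exact permutation p = 0.255), and without SHR replicate 1 the difference was -9.77 (exact permutation p = 0.0433, unadjusted). On the first principal component of the 12 libraries (23.3% of the variance) SHR replicate 5 lay at 8.21 and the other 11 between -3.24 and 2.27. SHR and QDG libraries overlapped along it.

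No muscle miRNA of the heart differed past the threshold, and the most abundant were bounded closely. Of 14 listed entries of the cardiac and muscle list, 12 were tested, 6 lay on the higher side and 0 had an unadjusted p under 0.05. Their median difference was -0.00 on the log2 scale, against 0.02 over all tested miRNAs, of which 222 (54.1%) lay on the higher side. miR-1b, the most abundant entry, had 330770, 371000 and 388012 RPM (lowest, median and highest) in SHR and 331023, 359939 and 376456 RPM in QDG. miR-1-3p had 105215, 119176 and 129327 RPM in SHR and 103029, 114051 and 122791 RPM in QDG. The ranges overlapped almost entirely for both. The differences, as log2(RPM + 1) ± SE, were -0.03 ± 0.07 for miR-1b and -0.04 ± 0.08 for miR-1-3p. miR-1b and miR-1-3p are near-identical, and the labels do not say how reads were divided between such entries. Summed with miR-206-3p over their shared seed GGAAUGU, they differed by -0.03 (95% interval -0.15 to 0.09). miR-133a-3p, which restrains cardiomyocyte growth, differed by -0.06 ± 0.13 and its sum with miR-133b-3p over the seed UUGGUCC by -0.04 (95% interval -0.32 to 0.24).

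Of the myosin-gene miRNAs, miR-208b-3p was the one that differed between SHR and WKY at the threshold, as did miR-1-3p among the other muscle entries. miR-208b-3p, encoded in the slow myosin gene Myh7, had 205, 280 and 382 RPM in SHR and 192, 260 and 300 RPM in QDG. WKY hearts had 112, 146 and 220 RPM. The QDG and SHR ranges overlapped broadly, and the lowest library of each fell within the WKY range. The difference with QDG was -0.17 ± 0.16 (95% interval -0.49 to 0.16, adjusted p = 0.983), beside 0.89 for SHR against WKY (adjusted p = 0.000132) and 0.72 for QDG against WKY (adjusted p = 0.00136). These 3 comparisons share libraries. miR-208a-3p, from the gene of the fast adult myosin Myh6, had 1736, 1911 and 2188 RPM in SHR and 1681, 2188 and 2317 RPM in QDG, a difference of 0.13 ± 0.12. Summed with miR-208b-3p over the shared seed, the difference was 0.09 (95% interval -0.15 to 0.33). miR-499-5p, from Myh7b, had 19510, 22690 and 26350 RPM in SHR and 16880, 24426 and 28751 RPM in QDG, a difference of 0.06 ± 0.11. All 3 overlapped broadly between the groups.

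The remodelling miRNAs likewise showed no difference past the threshold. miR-21-5p, the most studied fibroblast miRNA of the remodelled heart, had 18434, 22108 and 35198 RPM in SHR and 20148, 23380 and 25518 RPM in QDG, with 16129, 17252 and 18611 RPM in WKY. The highest SHR value was again replicate 5, and QDG libraries all lay above the WKY range. The difference with QDG was 0.01 ± 0.11 (95% interval -0.21 to 0.23), beside 0.42 for SHR against WKY (adjusted p = 0.00513) and 0.43 for QDG against WKY (adjusted p = 0.00436). Of the 4 arms of miR-132 and miR-212, which drive cardiomyocyte growth, all 4 lay on the lower side with QDG, with a median of -0.10 and none at an unadjusted p under 0.05. This side rested on single libraries: 2 arms were higher without SHR replicate 5, 2 without QDG replicate 2 and 1 without QDG replicate 3. In SHR replicate 5 the summed level of the 4 arms was 63.6 RPM, the other SHR libraries had 27.1 to 43.2 RPM and QDG 25.8 to 42.5 RPM. With 1 library left out in turn, the median ran from -0.20 to 0.05. miR-29a-3p, of the collagen-repressing miR-29 family, had 12692, 14230 and 15615 RPM in SHR and 10400, 14852 and 15420 RPM in QDG, a difference of -0.02 ± 0.10. All 6 miR-29 arms were tested, 4 lay on the higher side and their median was 0.04. For miRNAs reported to promote hypertrophy 10 of 23 lay on the higher side (median -0.00), and for those reported to restrain it 20 of 31 (median 0.02). For miRNAs reported to promote fibrosis the count was 5 of 8 (median 0.03), and for those reported to restrain it 10 of 16 (median 0.02). The sides of these lists depended on the processing. Over the other settings of scaling, filter, pseudocount and fit the counts fell as low as 7, 12, 3 and 6. A stricter filter can lower a count by testing fewer members. The medians went down to -0.05, -0.02, -0.03 and -0.04. In these 4 lists, 2 entries had an unadjusted p under 0.05, miR-22-3p and miR-122-5p.

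Abundant families differed little. All 11 arms of miR-30, which restrains connective tissue growth factor, lay on the higher side with QDG, none with an unadjusted p under 0.05. Their median was 0.09 and ran from 0.05 to 0.12 with 1 library left out, when 9 to 11 were higher. With TMM or RLE scaling 8 were higher, and the median fell to 0.04 when scaled without the 10 most abundant miRNAs. The arms share hairpins and near-identical sequences, so they are not separate observations. The abundant arm with the smallest p was miR-30d-5p, which had 27769, 30444 and 31066 RPM in SHR and 28904, 32389 and 33703 RPM in QDG, a difference of 0.09 ± 0.06 with 4 QDG libraries above every SHR library. Of the 21 let-7 arms, 14 lay on the higher side (median 0.03). Over the other settings, where a stricter filter can test fewer arms, the count fell to 8 and the median to -0.02. The 9 arms summed over the seed GAGGUAG differed by 0.04 (95% interval -0.07 to 0.16). Seed sums leave out the 38 tested names with no single RefSeq sequence, miR-30b-5p and miR-30d-5p among them. Across the 43 groups so formed, 0 (0%) were called and 0 (0%) had an unadjusted p under 0.05 in limma. All 43 intervals of these sums lay inside a 1.5-fold change in either direction. The smallest p was that of miR-26a-5p with miR-26b-5p (seed UCAAGUA), at 0.08 (adjusted p = 0.912).

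The other families fixed as lists held 0 called miRNAs and scattered on both sides of 0. The growth-linked miR-17-92 cluster and its paralogs had 6 of 20 on the higher side (median -0.08), and the cell-cycle family of miR-15 and miR-16 had 2 of 12 (median -0.03). miR-221 and miR-222 of vascular cells had 1 of 3 (median -0.06), and the stromal miR-199 and miR-214 had 1 of 3 (median -0.01), within which miR-214-3p gave -0.01 ± 0.14 and miR-199a-5p 0.01 ± 0.12. miR-23, miR-24 and miR-27 had 7 of 10 (median 0.04), miR-181 had 4 of 8 (median 0.02), miR-99, miR-100 and miR-125 had 7 of 11 (median 0.05) and the p53-linked miR-34 and miR-449 had 4 of 6 (median 0.05). In these lists miR-92b-3p, miR-449a-5p and miR-100-3p had an unadjusted p under 0.05. Of them miR-92b-3p passed the filter mainly through SHR libraries (4, beside 1 QDG and 2 WKY).

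**Figure D1:**
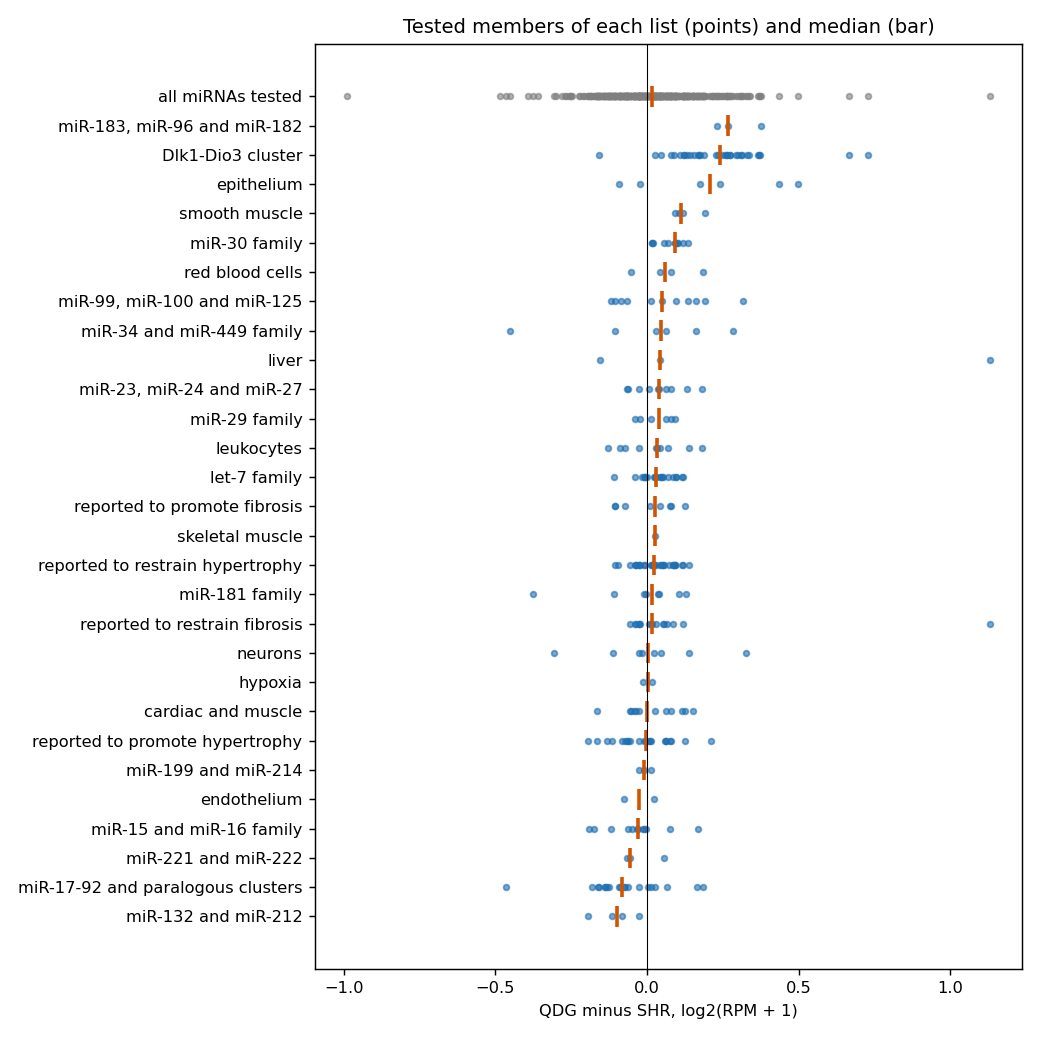
Difference between QDG and SHR on the log2(RPM + 1) scale (horizontal axis) for the tested members of each list (points) with the list's median (bar) and all 410 tested miRNAs in the top row. Most medians lie near 0, those of the Dlk1-Dio3 cluster, of miR-183, miR-96 and miR-182 and of the epithelial markers at 0.24, 0.27 and 0.21.

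The 2 smallest p-values both came from the Dlk1-Dio3 region, an imprinted locus whose miRNAs are made from long maternal transcripts. miR-136-3p had 0.899, 1.66 and 2.74 RPM in SHR and 2.54, 3.23 and 4.17 RPM in QDG, with 2.24, 3.44 and 3.97 RPM in WKY. Of the 6 QDG libraries 4 lay above every SHR library, and the groups overlapped. The difference was 0.67 ± 0.17 (95% interval 0.31 to 1.02, adjusted p = 0.189), and it ran from 0.57 to 0.77 with 1 library left out (adjusted p from 0.0671 to 0.753). miR-376b-3p had 0, 0.292 and 0.982 RPM in SHR and 0.668, 1.42 and 1.53 RPM in QDG, with 1.12, 1.31 and 1.98 RPM in WKY. It had no read in SHR replicates 2 and 5, where a count of 0 allows up to 0.513 and 0.524 RPM by counting error alone. Of the QDG libraries 5 lay above every SHR library, and the difference was 0.73 ± 0.20 (adjusted p = 0.189), or 0.64 to 0.84 with 1 library left out (adjusted p from 0.0750 to 0.753). Levels this low rest on few reads per library. No SHR library reached 1 RPM of miR-376b-3p, so it entered the test only through 5 QDG and 6 WKY libraries, and its p-values against SHR carry that limit. Over the settings with all libraries its difference ran from 0.21 with a pseudocount of 5 to 2.09 with limma-voom on the recovered reads. In the fit of log2(RPM + 1), miR-136-3p was lower in SHR than in WKY by 0.66 (adjusted p = 0.00684) and miR-376b-3p by 0.87 (adjusted p = 0.00148), while QDG against WKY gave 0.01 (adjusted p = 0.971) and -0.14 (adjusted p = 0.683). Because the same SHR libraries enter both comparisons, low SHR values move them in opposite directions.

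miR-127-3p, the most abundant entry of the region and antisense to the retrotransposon-like gene Rtl1, had 56.3, 62.9 and 92.9 RPM in SHR and 68.7, 85.9 and 108 RPM in QDG. WKY hearts had 130, 140 and 182 RPM, above every SHR and QDG library. The difference with QDG was 0.31 ± 0.13 (adjusted p = 0.983), and QDG stayed below WKY by 0.76 (adjusted p = 7.36e-05). miR-341, also of the region, differed by 0.37 ± 0.15 (adjusted p = 0.983). Of 71 listed entries of the region 34 were tested, and all but miR-493-5p lay on the higher side with QDG, with a median of 0.24. Over all tested miRNAs 222 of 410 (54.1%) lay on that side. Of the 34, 4 had an unadjusted p under 0.05, beside 15 of 410 (3.66%) over all tested, and 0 passed adjustment. The 4 include miR-376b-3p, with the limit given above. The median of the 34 ran from 0.19 to 0.29 with 1 library left out and from 0.09 to 0.32 over the other settings, the lowest with a pseudocount of 5. Their summed level per library, which miR-127-3p leads, was 126, 141 and 216 RPM in SHR, 163, 205 and 223 RPM in QDG and 273, 301 and 346 RPM in WKY. SHR replicates 3 and 4, at 207 and 216 RPM, lay among the QDG libraries, and the other 4 SHR libraries lay below all of them. In whole tissue, fewer cells of a type and less RNA per cell cannot be told apart. The members are processed from shared transcripts, so their common side is not 34 separate observations.

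**Figure D2:**
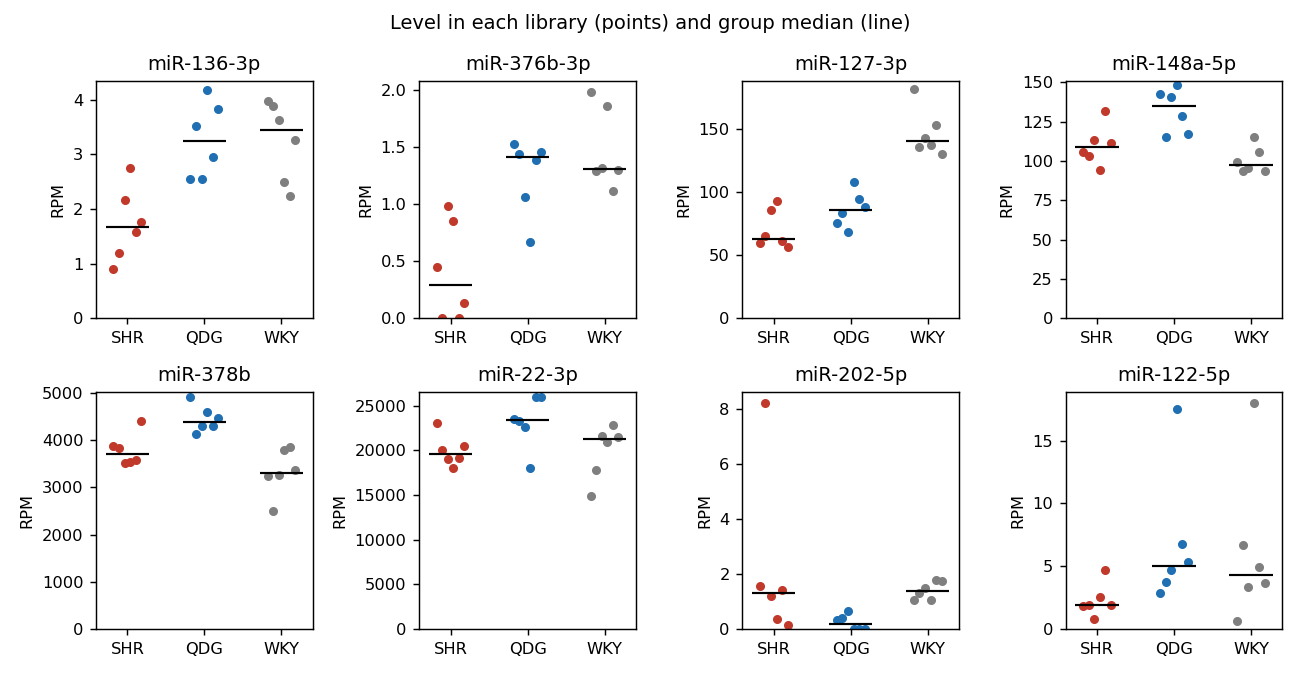
Level of 8 miRNAs in RPM (vertical axes, each from 0) in every SHR, QDG and WKY library (points) with the group median (line). miR-136-3p and miR-376b-3p are low in most SHR libraries, miR-202-5p and miR-122-5p each owe part of their difference to 1 high library (8.21 and 17.5 RPM), and the SHR and QDG points overlap in all 8 panels.

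The arms of a hairpin offer a readout in which the library's scale drops out where both arms lie well above the pseudocount of 1. Among 126 hairpins with both arms tested, the 5p over 3p ratio was called in 0 (0%) and had an unadjusted p under 0.05 in 1 (0.794%) by limma. That one was miR-136, whose log2 ratio went from -0.25 in SHR to -0.74 in QDG, a difference of -0.49 ± 0.20 (adjusted p = 0.987). It mirrors the 3p arm above, while miR-136-5p differed by 0.17 ± 0.20. The next ones were miR-376b at -0.46 ± 0.23 and miR-708 at -0.32 ± 0.16, both with an adjusted p of 0.987. The 3p arms of miR-136 and miR-376b lay near the pseudocount, so their ratios are not free of the scale. For 104 of the 126 ratios the 95% interval lay inside a 1.5-fold change in either direction and for all 126 inside 2-fold.

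At higher levels, 4 of 244 miRNAs with a mean of at least 10 RPM had an unadjusted p under 0.05. Over all tested miRNAs it was 15 of 410 (3.66%). The abundant 4 were all higher with QDG. Besides miR-127-3p they were miR-148a-5p, miR-378b and miR-22-3p. The count and its side depended on the scaling: it was 3 higher and 2 lower with TMM, 3 and 5 with RLE, 2 and 6 without the 10 most abundant, 3 and 3 with edgeR, 3 and 8 with DESeq2 and 3 and 4 with limma-voom. miR-127-3p was not among the higher ones in any of these 6, and miR-22-3p not without the 10 most abundant. miR-148a-5p, the less abundant arm of its hairpin, had 94.2, 109 and 132 RPM in SHR and 115, 135 and 148 RPM in QDG. WKY had 93.3, 97.4 and 115 RPM. The difference of 0.26 ± 0.10 (adjusted p = 0.983) stood beside 0.12 for SHR against WKY (adjusted p = 0.422), and QDG was higher than WKY by 0.39 (adjusted p = 0.00547). miR-378b, an entry related to the miR-378a hairpin in a gene of mitochondrial metabolism, had 3510, 3701 and 4411 RPM in SHR and 4121, 4393 and 4904 RPM in QDG. Its WKY level was 2497, 3312 and 3858 RPM. The difference was 0.23 ± 0.09 (adjusted p = 0.983), with QDG above WKY by 0.43 (adjusted p = 0.00129), and the much more abundant miR-378a-3p differed by 0.12 ± 0.09. For these 2 miRNAs QDG passed the threshold against WKY and SHR did not, and the test of that difference is QDG against SHR itself, which did not pass.

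miR-22-3p, which promotes hypertrophic growth of cardiomyocytes, had 18049, 19579 and 23040 RPM in SHR and 17981, 23400 and 26023 RPM in QDG. The lowest value of all 12 was QDG replicate 4. The difference was 0.21 ± 0.10 (adjusted p = 0.983), and the other arm of the hairpin, miR-22-5p, differed by 0.22 ± 0.11. The 5p over 3p ratio of miR-22 differed by 0.00 (95% interval -0.22 to 0.23). The next smallest p-values on the higher side at this level were those of miR-363-3p at 0.18 and the smooth muscle miRNA miR-143-3p at 0.19. They were followed by miR-99a-5p at 0.13, miR-34b-5p at 0.28 and miR-125b-1-3p at 0.19. On the lower side none reached an unadjusted p under 0.05 with the deposited scaling, while miR-20a-5p and miR-674-5p did in all 6 of those alternatives. The smallest p-values were those of miR-674-5p at -0.26 ± 0.15 (adjusted p = 0.983), miR-203a-3p at -0.20 ± 0.12, miR-194-5p at -0.16 ± 0.10 and miR-20a-5p at -0.16 ± 0.11, of the miR-17-92 cluster. The remaining 6 named by rank on that side were miR-503-5p, miR-103-3p, miR-335, miR-671, miR-1839-5p and miR-25-3p, between -0.22 and -0.10.

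Among scarce miRNAs, which in the case of miR-202-5p and miR-188-5p had no QDG library at 1 RPM and passed the filter through SHR and WKY, some of the larger differences rested on single libraries. miR-202-5p, named here after its values were seen, had 0.135, 1.29 and 8.21 RPM in SHR and 0, 0.170 and 0.636 RPM in QDG. SHR replicate 2 held the 8.21 RPM, and without it the difference moved from -0.99 ± 0.33 (adjusted p = 0.977) to -0.60. miR-122-5p, the defining miRNA of liver, had 0.786, 1.89 and 4.72 RPM in SHR and 2.88, 4.98 and 17.5 RPM in QDG. WKY spanned 0.610 to 18 RPM. The difference of 1.13 ± 0.49 (adjusted p = 0.983) became 0.84 without QDG replicate 4, which held the 17.5 RPM. Of the 4 listed liver markers 3 were tested and 2 lay on the higher side, and their summed level was 1068 to 1171 RPM in SHR and 1068 to 1202 RPM in QDG. Of that sum miR-122-5p held at most 4.72 RPM in SHR and 17.5 RPM in QDG, so the sum says little about it. The part of liver RNA in the result was not tested. The others on the higher side were miR-100-3p at 0.32, miR-183-5p at 0.38 and miR-205 at 0.50. Those on the lower side were miR-92b-3p at -0.47, miR-449a-5p at -0.45 and miR-188-5p at -0.49, the last also named after its values were seen. miR-92b-3p reached 1 RPM in 4 SHR, 1 QDG and 2 WKY libraries. It thus passed the filter mainly through SHR, where it was higher than with QDG, and its p-value carries that limit.

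**Figure D3:**
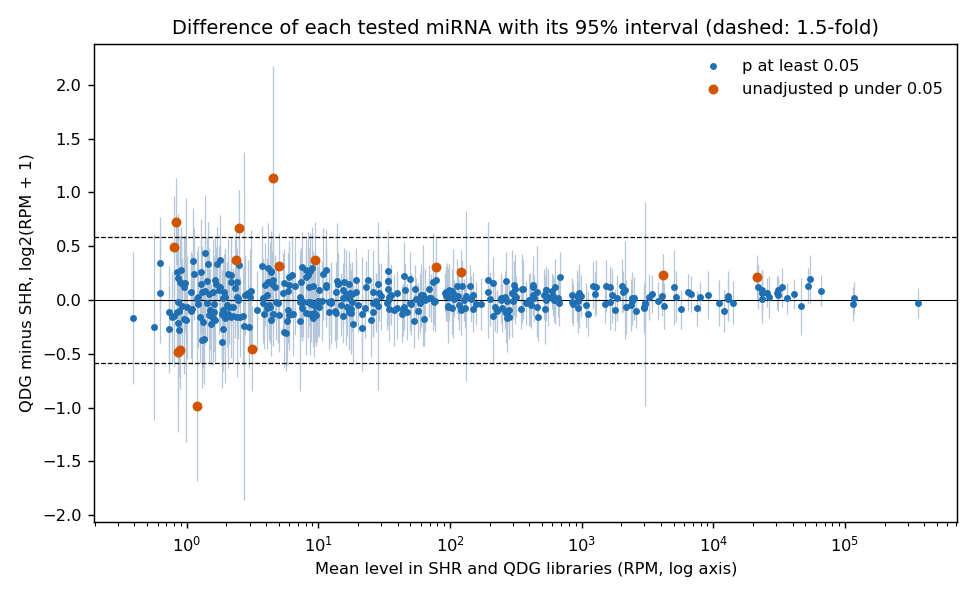
Difference between QDG and SHR on the log2(RPM + 1) scale with its 95% interval (vertical axis) against the mean level of the miRNA in RPM (horizontal, log axis), 1 point for each of 410 miRNAs and dashed lines at a 1.5-fold change. The 15 miRNAs with an unadjusted p under 0.05 are orange, and the 4 differences past 1.5-fold all belong to miRNAs below 10 RPM.

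How small a difference these libraries could bound depended on the level. Over all 410 miRNAs the 95% interval reached a median of 0.30 log2 to either side, or 1.23-fold on the scale of RPM plus 1. On that scale the interval lay inside a 1.5-fold change in either direction for 333 miRNAs (81.2%) and inside 2-fold for 402. The pseudocount of 1 narrows the intervals of scarce miRNAs, so for them these counts do not bound the fold change in RPM. At a mean of at least 10 RPM the interval lay inside 1.5-fold for 234 of 244 and inside 2-fold for all 244. At 100 RPM or more it lay inside 1.5-fold for 142 of 145. Among the exceptions were both miR-10 genes, which sit in Hox clusters and mark position along the body axis. miR-10a-5p had 1348, 3508 and 4683 RPM in SHR and 1542, 3000 and 4996 RPM in QDG, and its interval ran from -0.98 to 0.91. miR-10b-5p had 57.0, 111 and 308 RPM in SHR and 71.4, 125 and 193 RPM in QDG, with an interval of -0.75 to 0.83. Both varied several-fold within each group, so for them only large changes with QDG would have been detectable.

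The miRNAs that differed most between the strains were then read with QDG. SHR differed from WKY in 95 miRNAs (23.2%), 33 higher (8.05%) and 62 lower (15.1%), and QDG differed from WKY in 73 (17.8%), 30 higher (7.32%) and 43 lower (10.5%). These splits depended on the scaling: with RLE they were 46 higher and 47 lower for SHR and 42 and 40 for QDG, and with DESeq2 52 and 44 and 46 and 41. Both comparisons use the same WKY libraries, so only the values of single miRNAs are set side by side. The rule took the 6 largest differences in each direction at 10 RPM or more. miR-182, a sensory and epithelial miRNA, had 23.5, 29.8 and 34.8 RPM in SHR, 15.9, 40.8 and 48.4 RPM in QDG and 5.82, 6.66 and 7.59 RPM in WKY. Every SHR and QDG library lay above every WKY library, and QDG replicate 2 was the low one. QDG against SHR gave 0.27 ± 0.18, SHR against WKY 1.98 and QDG against WKY 2.24. Its cluster mates miR-183-5p and miR-96-5p gave 0.38 ± 0.17 and 0.23 ± 0.18 for QDG against SHR, so all 3 lay on the higher side.

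miR-34a-5p, induced by p53 and linked to cardiac ageing, had 208, 236 and 264 RPM in SHR, 204, 218 and 239 RPM in QDG and 94.6, 115 and 137 RPM in WKY. QDG against SHR gave -0.11 ± 0.10 (95% interval -0.31 to 0.10), beside 1.02 and 0.91 against WKY for SHR and QDG. The paralogous miR-34c-5p lay on the other side, with 52.6, 55.9 and 96.4 RPM in SHR, 48.5, 63.4 and 71.8 RPM in QDG and 89.9, 101 and 128 RPM in WKY. Its difference with QDG was 0.03 ± 0.14. miR-598-3p had 27.2, 33.6 and 39.9 RPM in SHR, 30.5, 34.5 and 37.1 RPM in QDG and 59.5, 75.3 and 81.2 RPM in WKY. SHR and QDG libraries both lay wholly below WKY, with -1.06 and -1.04 against WKY and 0.01 ± 0.11 between them. The remaining strain miRNAs had differences with QDG of -0.04 (miR-1-3p), -0.11 (miR-132-5p), -0.10 (miR-452-5p), 0.13 (miR-411-5p), 0.23 (miR-379-5p) and 0.28 (miR-34b-5p), none with an unadjusted p under 0.05. Of the 12, miR-127-3p alone had one.

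**Figure D4:**
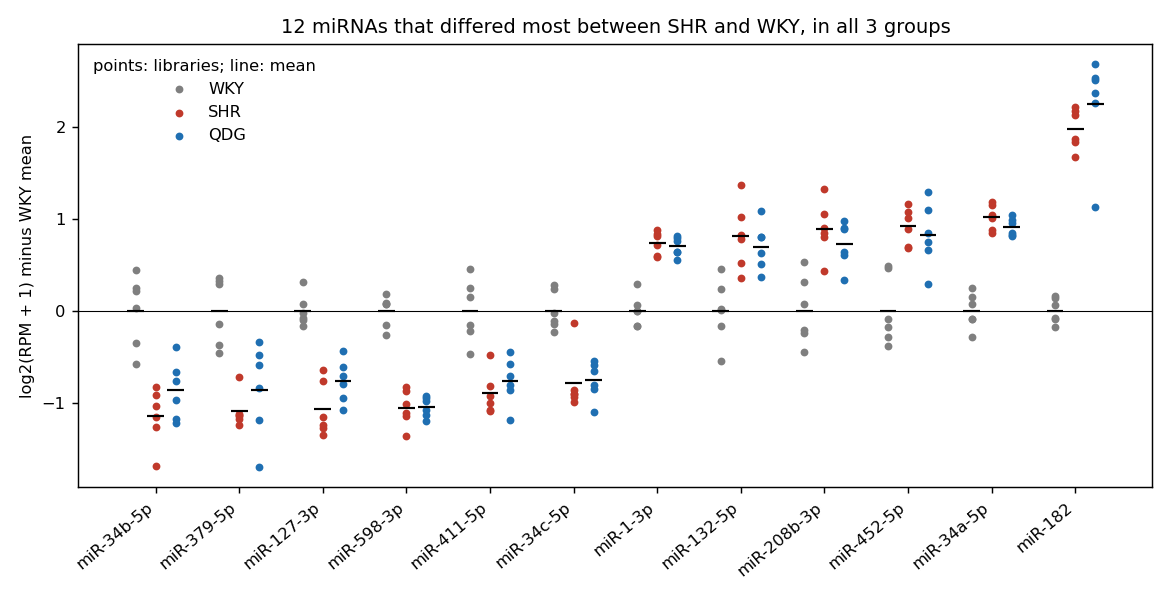
Level of the 12 miRNAs in each library as log2(RPM + 1) minus the WKY mean (vertical axis), with the group mean as a line, for WKY, SHR and QDG. The SHR and QDG libraries overlap for every one of the 12, and miR-598-3p lies near -1.06 in SHR and -1.04 in QDG.

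Markers of other cell types in the heart were read from the same libraries. miR-126a-3p of endothelium had 111351, 113779 and 123456 RPM in SHR and 113570, 116866 and 126667 RPM in QDG, a difference of 0.02 ± 0.07. The 4 arms of miR-143 and miR-145 of smooth muscle all lay on the higher side (median 0.11), and their summed level was 44421 to 65776 RPM in SHR and 53819 to 75150 RPM in QDG. Of 10 leukocyte markers 6 lay on the higher side (median 0.03). Of 4 tested red blood cell markers 3 did (median 0.06), with miR-451-5p at 0.08 ± 0.20. The 8 tested neuronal markers had a median of 0.00. miR-206-3p, the skeletal muscle member of the miR-1 family, had 467, 521 and 771 RPM in SHR and 494, 540 and 658 RPM in QDG. The hypoxia-induced miR-210-3p had 255, 268 and 296 RPM in SHR and 252, 272 and 280 RPM in QDG, a difference of -0.01 ± 0.10. In all of these the groups overlapped. Of the 6 epithelial markers 4 lay on the higher side (median 0.21, from 0.08 to 0.42 with 1 library left out). Their summed level hardly differed, at 65.2, 74.5 and 90.4 RPM in SHR and 60.0, 77.1 and 82.7 RPM in QDG. miR-205 had an unadjusted p under 0.05, at 0 to 0.810 RPM in SHR and 0.339 to 2.74 RPM in QDG, but no SHR library reached 1 RPM and it entered the test only through 3 QDG and 3 WKY libraries.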

How the data were processed

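Small RNA of rat hearts was sequenced in 18 libraries, 6 per group, grouped by their titles. Whether each library is another rat is not stated separately, so p-values may cover only the spread between libraries. Per the labels' protocols, RNA was extracted with Trizol and libraries made with the NEBNext small RNA kit. Per the submitters' processing notes the tools were FastQC, TopHat2 and limma. Their roles, the build, the miRNA annotation and the treatment of reads that fit several miRNAs were not given in the sources used here. The deposited columns hold normalized read counts, per the file headers, and are used as a signal in RPM. All 10782 values gave whole reads (within 0.01) once multiplied by a step particular to the library, so the authors appear to have divided by a number of reads and scaled to 1000000. The values of a library summed to more than 1000000, from 1338745 in SHR replicate 4 to 1508772 in WKY replicate 5. The number divided by was thus smaller than the reads summed over entries. When the recovered reads of entries were compared pairwise, let-7a-1-3p and let-7c-2-3p were nearly equal, and identical in 5 of the 18 libraries. Both are counted in the let-7 list. Whether these are the same reads was not tested. Nor was it tested whether other reads were counted under more than 1 entry, which would bear on the count tests too.

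The design assumed whole counts, so limma (3.58.1, R 4.3.3) replaced edgeR: a fit of log2(RPM + 1) in all 18 libraries, with trend and robust moderation, no covariate and Benjamini-Hochberg adjustment at 0.05. Fold changes of scarce miRNAs are understated by the pseudocount of 1. Arm ratios and seed sums were fitted alike. edgeR (4.0.16), DESeq2 (1.42.0) and limma-voom ran on the recovered reads as alternatives, with other pseudocounts, filters and scalings, and each library left out. Single values were compared by two-sided exact permutation over 6 against 6 libraries (smallest p 0.00216, scipy 1.17.1). Only the main limma fit was also run on simulated counts, which do not bear on the other fits.

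Members and lists were chosen with earlier results of these data known, and miR-325 was taken out of the Dlk1-Dio3 list after values were seen because RefSeq places it on X. Named miRNAs are, at a mean of at least 10 RPM, those called, the 10 smallest p-values in each direction, the 10 most abundant, those whose groups do not overlap (0) and the 6 largest strain differences each way. Whole lists (muscle, miR-29, miR-132/212, miR-199/214, smooth muscle, endothelium, red blood cells, hypoxia), up to 4 members of each other list and the 5 smallest p-values among arm ratios complete them. Sequences are RefSeq's (GRCr8). Intervals cover replicate spread, floors counting error only.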

Additional observations from a re-analysis of the deposited data

Results flagged for a closer look

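In a group of 6 libraries a value was noted where its gap to the nearest other library, over the group's whole range, passed Dixon's critical value for 6 samples. The check covered 154 groups (77 miRNAs in SHR and in QDG) and 4 measures of composition, and chance alone passes about 1 in 20 groups. It noted 11 values.

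QDG replicate 4 was far below the other QDG libraries for miR-126a-5p at 1898 RPM, miR-29a-3p at 10400 RPM and miR-29b-3p at 335 RPM. QDG replicate 2 was low for miR-182 at 15.9 RPM and for miR-214-3p at 57.4 RPM. QDG replicate 5 was low for miR-671 at 11.1 RPM. QDG replicate 1 had the most detected miRNAs of its group, 506. Of the SHR libraries, replicate 5 was far above the rest for miR-199a-5p at 3428 RPM and for miR-34c-5p at 96.4 RPM. SHR replicate 4 was high for miR-133a-5p at 2598 RPM and for miR-379-5p at 9.77 RPM.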

How the results depend on the processing

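No miRNA was called for QDG against SHR in any of 31 alternatives, 18 of which left out 1 library. The count at an unadjusted p under 0.05, 15 as reported, was 26 with no filter on low values, 4 with a minimum of 10 RPM and 10 to 21 with a library left out. Its split, 11 higher and 4 lower, was 10 and 7 with TMM scaling, 10 and 10 with RLE and 7 and 13 without the 10 most abundant miRNAs, while scaling moved the median of all miRNAs by less than 0.1. The replicate block left 0 calls, and 11 and 4 at the unadjusted threshold. QDG and SHR libraries of the same number correlated at -0.127 to 0.120, none best with its own number. No pairing by number was thus detected, though such correlations could miss a weak one. With no filter, 509 of 599 intervals lay inside 1.5-fold on the scale of RPM plus 1, beside 333 of 410 as reported. On that scale the pseudocount narrows the intervals of entries near 0 RPM, so the larger count is no gain in precision.

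Leaving out a library moved the difference in reads between -548057 and 201726 (the positive end without SHR replicate 6), that in the share of the 10 most abundant between -0.856 (without SHR replicate 5, exact permutation p = 0.0390) and -0.202 percentage points, and that in detected miRNAs between -9.77 (without SHR replicate 1, exact permutation p = 0.0433) and -3.17. SHR against WKY gave 81 to 106 and QDG against WKY 64 to 81 calls with a library left out.

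Of 77 miRNAs followed, 53 kept their sign throughout. For the rest the sign changed in some of the alternatives, in no case at the threshold, and the cause was not tested. With TMM scaling it did so for miR-126a-3p (-0.000814), miR-199a-5p (-0.00838), miR-29b-3p (-0.00879), miR-30c-5p (-0.0064) and miR-598-3p (-0.00962). With RLE scaling it did so for miR-126a-3p (-0.00883), miR-199a-5p (-0.0164), miR-206-3p (-0.00571), miR-210-5p (-0.0015), miR-29b-3p (-0.0168), miR-30c-5p (-0.0144), miR-34c-5p (-0.000124) and miR-598-3p (-0.0174). With scaling without the 10 most abundant it did so for miR-126a-3p (-0.0283), miR-144-5p (-0.00762), miR-199a-5p (-0.0358), miR-206-3p (-0.0251), miR-210-5p (-0.0172), miR-29b-3p (-0.0362), miR-30c-5p (-0.0339), miR-34c-5p (-0.0192) and miR-598-3p (-0.0364). With edgeR it did so for miR-126a-3p (-0.00129), miR-144-5p (-0.00366), miR-199a-5p (-0.0196), miR-206-3p (-0.0119), miR-210-5p (-0.0081), miR-29b-3p (-0.00427), miR-30c-5p (-0.00946), miR-34c-5p (-0.0128) and miR-598-3p (-0.0193). With DESeq2 it did so for miR-126a-3p (-0.00877), miR-144-5p (-0.0139), miR-199a-5p (-0.0294), miR-206-3p (-0.019), miR-210-5p (-0.0136), miR-29b-3p (-0.0132), miR-30c-5p (-0.0178), miR-34c-5p (-0.0225) and miR-598-3p (-0.0279). With limma-voom it did so for miR-126a-3p (-0.000447), miR-199a-5p (-0.00867), miR-29b-3p (-0.00844), miR-30c-5p (-0.00617) and miR-598-3p (-0.0143). With a library left out the log2 difference ran as follows: miR-126a-5p -0.122 to 0.0437, miR-132-3p -0.152 to 0.162, miR-133a-3p -0.111 to 0.0223, miR-133a-5p -0.102 to 0.0354, miR-144-5p -0.0517 to 0.159, miR-145-5p -0.0168 to 0.25, miR-199a-3p -0.0888 to 0.0409, miR-199a-5p -0.0303 to 0.123, miR-206-3p -0.0245 to 0.125, miR-210-3p -0.0296 to 0.0128, miR-210-5p -0.100 to 0.129, miR-212-3p -0.236 to 0.0969, miR-214-3p -0.0829 to 0.114, miR-29a-3p -0.0565 to 0.062, miR-29b-3p -0.0289 to 0.0902, miR-29b-5p -0.0042 to 0.149, miR-29c-3p -0.078 to 0.0604, miR-30c-5p -0.0128 to 0.0389, miR-34c-5p -0.0117 to 0.162, miR-451-5p -0.0173 to 0.164, miR-452-5p -0.189 to 0.0114, miR-486 -0.109 to 0.0159 and miR-598-3p -0.0483 to 0.0588.

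Intervals were wider with scarce entries included: the median reach of the 95% interval was 0.24 log2 at 10 RPM or more and 0.30 over all tested.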

Other observations

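SHR replicate 5 stood apart in a set of scarce miRNAs of the X chromosome, chosen here after their values were seen. miR-741-3p had 24.3 RPM in SHR replicate 5 and 5.59 RPM in QDG replicate 1, and at most 0.619 RPM in the other 10 SHR and QDG libraries. miR-871-3p, miR-743b-3p and miR-471-5p had 6.81, 7.16 and 5.07 RPM in SHR replicate 5. In QDG replicate 1 they had 3.90, 1.86 and 1.53 RPM. In WKY, miR-741-3p ran from 0.330 to 7.66 RPM. These miRNAs are known from testis, and with so uneven a spread none of the 4 had an interval inside a 2-fold change between QDG and SHR.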
